A study of Homo sapiens with 4 samples.

Results

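The genes described here encode the cytosolic factors that start, extend and end protein synthesis. Their choice used no measured value as a criterion, but it was made with earlier results of these data known. They are 46 genes listed by symbol and found as 46 of the 57992 rows of the count table. They fall into 10 role groups: eIF2 (3 genes), its exchange factor eIF2B (5), eIF3 (13), the eIF4 cap-binding and helicase factors (8), the 4E-binding proteins (2), scanning and subunit-joining factors (5), EIF5A (1), elongation factors (5), cytoplasmic poly(A)-binding proteins (2) and release factors (2). RNA was measured by poly(A) sequencing in MOLM13 cells, an established human acute myeloid leukaemia line, here a VEN-R derivative (venetoclax-resistant in the series title). A doxycycline-induced hairpin against PRMT9, a protein arginine methyltransferase, was expressed in 2 libraries, and a control hairpin under the same doxycycline treatment in the other 2. All 4 libraries therefore share the cell line, the resistance and the drug, and the labels name neither the hairpin sequences nor the clones, nor whether libraries 1 and 2 come from separate cultures, so the p-values measure only the spread between these libraries.

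Translation begins when eIF2, loaded with GTP and the initiator tRNA, joins the small ribosomal subunit together with eIF3, eIF1, eIF1A and eIF5, while the eIF4 factors bind the cap of the messenger RNA and unwind its leader. The large subunit joins with the help of eIF5B, eEF1A then delivers each charged tRNA, eEF2 moves the ribosome along, and eRF1 with eRF3 releases the finished chain. Messenger RNAs of ribosomal proteins and of several elongation factors start with a C and a run of pyrimidines, the 5′ terminal oligopyrimidine (TOP) motif, through which mTORC1 and LARP1 control their translation and storage.

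PRMT9 RNA was lower in the PRMT9 hairpin libraries, with 81 and 78 counts in PRMT9 hairpin libraries 1 and 2, against 398 and 406 counts in control libraries 1 and 2 (log2 fold change -2.48, SE 0.12). Total counts were 30764403 and 33845172 in the PRMT9 hairpin libraries and 30329901 and 28592902 in the controls. Of 15193 genes tested, 68.0% passed an adjusted p of 0.05 in edgeR's quasi-likelihood test, 33.4% as higher and 34.5% as lower after PRMT9 knockdown, with a median log2 fold change of 0.001. Myeloid markers were present, with 8 of 10 at 10 counts or more in every library, and their summed level was 2096 to 2102 CPM (counts scaled to library size) in PRMT9 hairpin libraries and 1550 to 1570 CPM in controls. Summed lymphoid markers were at 0.683 to 0.739 CPM after PRMT9 knockdown and 0.561 to 0.699 CPM in controls, and epithelial and stromal markers at 0.520 to 0.680 CPM and 0.363 to 0.420 CPM. The erythroid genes HBB and HBA1 and the epithelial genes EPCAM and KRT19 were at 0 throughout. Of the 9 myeloid markers tested 7 were higher and 2 lower: LYZ held the most counts, with means of 942 CPM after PRMT9 knockdown and 607 CPM in controls, ITGAM rose by 1.83 on the log2 scale, and MPO and FCGR1A fell by 0.47 and 0.62. The part of these marker differences in the results below was not tested. Control library 2 stood apart for a few genes: of 12701 genes at 1 CPM or more, 13 were over 3-fold higher and 13 over 3-fold lower in it than in control library 1, against 4 and 2 genes between the PRMT9 hairpin libraries.

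The translation factors can be sorted by their first transcribed bases into those with and without a pyrimidine start, and some of these windows are shown before the values. Windows with the run are shown only for genes called higher or lower. EIF3F, EIF3M and EIF4A2 also start with the run, were not called and are left out. The windows without the run are from some of the genes that were lowered most, so the windows shown divide more cleanly than the full set. Each window runs 5′ to 3′ from 10 bases before the annotated start to 20 bases from it on, from RefSeq on GRCh38.p14, and the capitals mark the first transcribed base with the unbroken pyrimidine run behind it. The elongation and initiation factor genes below start with a C and at least 4 further pyrimidines:
EEF1A1: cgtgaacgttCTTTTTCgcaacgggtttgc
EEF2: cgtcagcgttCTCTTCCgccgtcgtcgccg
EEF1B2: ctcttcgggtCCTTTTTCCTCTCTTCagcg
EIF4B: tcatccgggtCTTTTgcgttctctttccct
EIF3D: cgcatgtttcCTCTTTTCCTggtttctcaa
EIF2S3: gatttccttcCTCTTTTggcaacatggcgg
EIF3K: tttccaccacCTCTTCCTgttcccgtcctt
Of the genes that were lower, these have no such run at their annotated starts, where the capital is then only the first base:
EIF3B: tcgcacgcacAtggctgggctgtagccgtc
EIF4E: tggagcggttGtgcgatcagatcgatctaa
EIF2S1: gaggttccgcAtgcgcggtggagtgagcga
GSPT1: gaggagatccGctcacacacacgaggagga
EIF5A: ggagcgacgcAgggcgggggacggcgagcc
These windows lie at chr6:73521013-73521042 on the minus strand for EEF1A1, chr19:3985444-3985473 minus for EEF2, chr2:206159885-206159914 plus for EEF1B2, chr12:53006446-53006475 plus for EIF4B, chr22:36529147-36529176 minus for EIF3D, chrX:24054946-24054975 plus for EIF2S3 and chr19:38619178-38619207 plus for EIF3K. Those without the run lie at chr7:2354817-2354846 plus for EIF3B, chr4:98929114-98929143 minus for EIF4E, chr14:67360318-67360347 plus for EIF2S1, chr16:11915937-11915966 minus for GSPT1 and chr17:7307959-7307988 plus for EIF5A. In all 10 of the genes have more than 1 annotated start, GSPT1 and EIF5A among them, and none of the starts of these 2 carries the run. EEF1B2 has another annotated start, which begins with an A and lacks the run. A gene was counted as having the run if any of its starts had it.

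Of the 46 genes, 45 had enough counts to be tested, and they moved in both directions. Among the elongation factors 3 of 4 were higher after PRMT9 knockdown, whereas the release factors, the 4E-binding proteins, EIF5A, 2 of 3 eIF2 genes, 4 of 5 eIF2B genes and 5 of 8 eIF4 genes were lower. The eIF3 genes were mixed (4 higher, 5 lower), as were the poly(A)-binding proteins (1 higher, 1 lower). With upper-quartile scaling the lower genes were 2 of eIF2B and 3 of eIF4, where 3 eIF4 genes were higher, and differences between the roles were not tested. In all 12 were called higher (26.7% of those tested, against 33.4% of all genes) and 26 lower (57.8%, against 34.5% of all genes), and 7 passed in neither direction. With upper-quartile scaling 16 were higher and 21 lower, where 39.1% of all genes were higher and 29.2% lower (68.3% in either direction). Tested against a fold of 1.2 with edgeR's glmTreat, 4 were higher and 16 lower, where 22.7% of all genes were higher and 22.2% lower (44.9% in either direction). Their median log2 fold change was -0.15, against 0.001 over all genes tested. The changes were small: the median absolute log2 fold change was 0.28 for the translation factors and 0.40 for all genes. The genes compared were not matched in expression level. The values of the PRMT9 hairpin libraries and the controls did not overlap for 40 of the 45, where 83.3% of all genes tested did not overlap (41.7% as higher and 41.7% as lower). In bulk RNA a difference in cell composition and one in RNA per cell cannot be told apart.

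**Figure D1:**
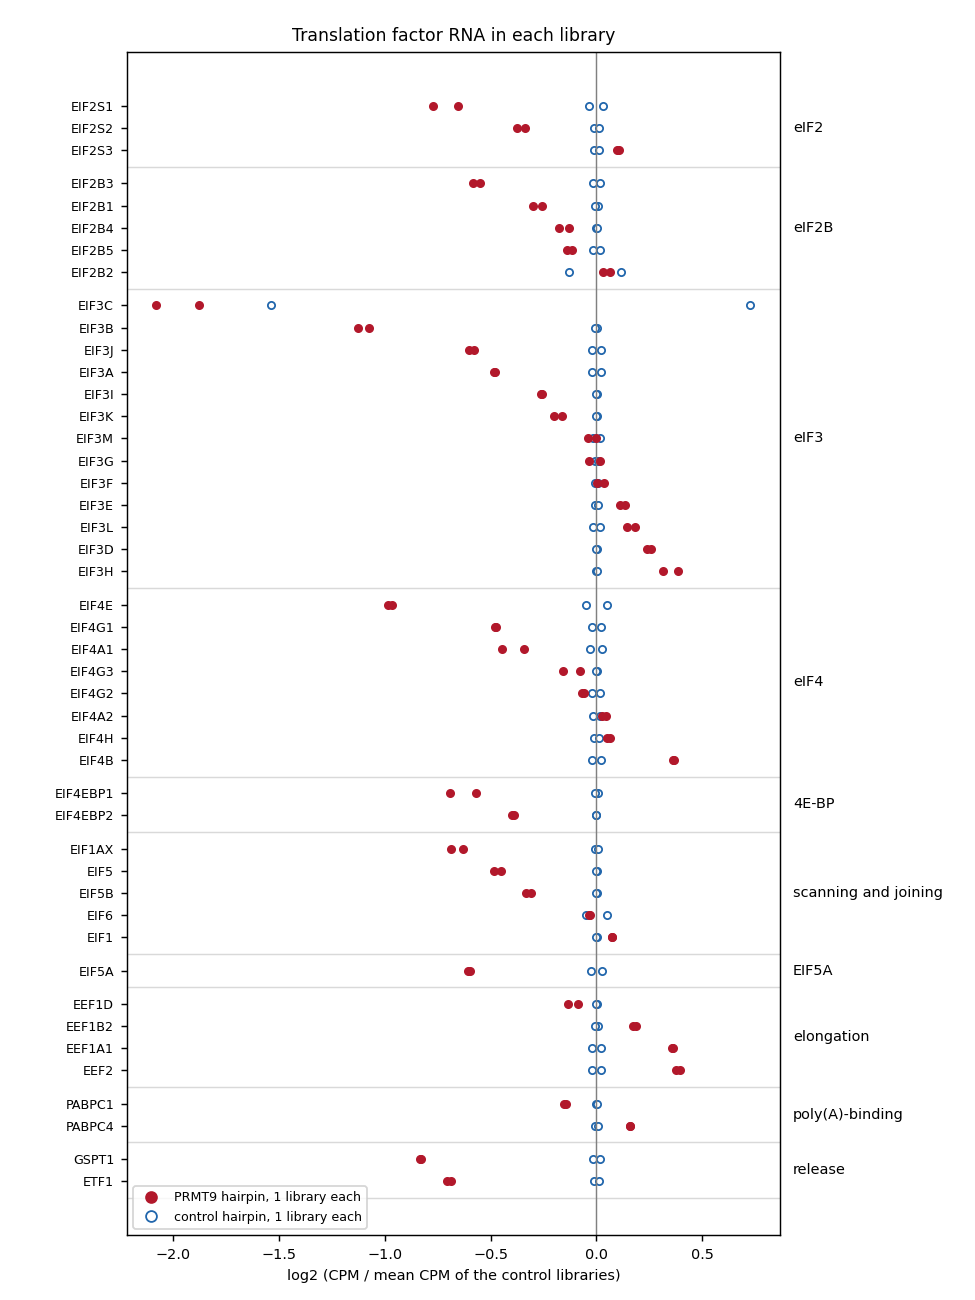
Each point is 1 library, plotted as the log2 ratio of its CPM to the mean CPM of the control libraries (horizontal axis), for the 45 translation factor genes tested, ordered by role; PRMT9 hairpin libraries are filled and control libraries open. Points of the release factors, EIF4E and EIF3B sit far left of the controls, those of EEF1A1, EEF2, EIF4B and EIF3H sit right of them, and EIF3C is the gene whose control libraries disagree.

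The eIF2 subunits did not move together: EIF2S1 and EIF2S2 were lower and EIF2S3 slightly higher, with a median of -0.36. EIF2S1 encodes the alpha subunit, whose phosphorylation by stress kinases turns initiation down (chromosome 14, 67359997 to 67386516, plus strand). It had 48.2 and 52.3 CPM in the PRMT9 hairpin libraries, against 80.4 and 84.2 CPM in the controls. The groups were far apart, and the log2 fold change was -0.71 (SE 0.04, adjusted p = 1.82e-10). EIF2S2, the beta subunit, had 248 and 242 CPM after PRMT9 knockdown and 311 and 316 CPM in controls, again without overlap (-0.36, SE 0.02, adjusted p = 4.78e-10). EIF2S3, the GTP-binding gamma subunit, had 696 and 699 CPM after PRMT9 knockdown and 644 and 655 CPM in controls. Its groups were also apart, but by little (0.10, SE 0.02, adjusted p = 1.23e-04). Per exon length EIF2S1 was the least abundant of the subunits, at 8.87 ± 0.523 RPKM (the authors' unit, which divides by exon length as well as library size) after PRMT9 knockdown and 14.6 ± 0.727 RPKM in controls, whereas EIF2S3 was at 201 ± 0.918 RPKM and 187 ± 5.36 RPKM (SD, n = 2 libraries each).

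The eIF2B genes encode the subunits of the factor that recharges eIF2 with GTP, and 4 of 5 were lower, 0 were higher, with a median of -0.15. EIF2B3, the gamma subunit, which works with epsilon in the catalytic part, had 24.8 and 24.2 CPM in the PRMT9 hairpin libraries, against 35.9 and 36.8 CPM in the controls. That was the widest gap of the group (-0.57, SE 0.05, adjusted p = 4.10e-08). EIF2B1, the regulatory alpha subunit, had 124 and 128 CPM after PRMT9 knockdown and 153 and 152 CPM in controls (-0.28, SE 0.03, adjusted p = 1.36e-07). EIF2B4, the delta subunit, had 30.9 and 29.9 CPM after PRMT9 knockdown and 33.7 and 33.8 CPM in controls, groups that stood apart by a narrow margin (-0.15, SE 0.05, adjusted p = 0.0126). EIF2B5, the catalytic epsilon subunit, fell by 0.13. The exception was EIF2B2, the beta subunit, with 13.6 and 13.3 CPM after PRMT9 knockdown and 11.9 and 14.1 CPM in controls. Its controls lay on either side of the PRMT9 hairpin libraries, and the log2 fold change of 0.05 (95% confidence interval -0.14 to 0.24) did not pass (adjusted p = 0.626). Without control library 2 the number of eIF2B genes called lower was 2, EIF2B4 and EIF2B5 no longer passing, and it was also 2 with DESeq2 and with upper-quartile scaling.

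The 13 eIF3 genes spread most widely, with 5 lower, 4 higher and 4 not called, and a median of -0.02 (7 higher and a median of 0.07 with upper-quartile scaling). EIF3B, a core subunit that also carries EIF3G, EIF3I and EIF3J, was lower by more than any other translation factor called (chromosome 7, 2354086 to 2380745, plus strand). It had 170.0 and 164 CPM in the PRMT9 hairpin libraries, against 359 and 357 CPM in the controls. The level after PRMT9 knockdown was 0.466 of the control level (log2 fold change -1.10, SE 0.02, adjusted p = 7.88e-16). EIF3J, a loosely bound subunit that sits near the decoding site, had 124 and 122 CPM after PRMT9 knockdown and 188 and 183 CPM in controls (-0.59, SE 0.03, adjusted p = 5.75e-12). EIF3A, the largest subunit and the scaffold of the complex, had 775 and 778 CPM after PRMT9 knockdown and 1068 and 1099 CPM in controls (-0.48, SE 0.02, adjusted p = 7.73e-13). In all of these the libraries of a group were close and the groups far apart. EIF3I, a small propeller-shaped subunit bound to EIF3B, fell by 0.26, and the peripheral subunit gene EIF3K by 0.18.

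The 4 subunit genes that were higher were EIF3H, EIF3D, EIF3L and EIF3E. EIF3H, a subunit with a protease-like fold, had 713 and 748 CPM in PRMT9 hairpin libraries, against 572 and 574 CPM in controls (0.35, SE 0.02, adjusted p = 3.48e-10). EIF3D, the subunit that can itself bind the cap of some messenger RNAs, had 432 and 426 CPM after PRMT9 knockdown and 362 and 361 CPM in controls (0.25, SE 0.02, adjusted p = 1.13e-08). EIF3L and EIF3E, which neighbour EIF3K and EIF3D in the complex, rose by 0.16 and 0.12. EIF3F had a log2 fold change of 0.02 (adjusted p = 0.506), EIF3M -0.02 (adjusted p = 0.479) and EIF3G -0.01 (adjusted p = 0.776). EIF3G, which binds RNA, had 209 and 202 CPM after PRMT9 knockdown and 206 and 207 CPM in controls, so the groups overlapped. EIF3H and EIF3D are shown after their values were seen.

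EIF3C, another core subunit, could not be read in the same way because 1 control library decided its value. It had 16.5 and 14.3 CPM in the PRMT9 hairpin libraries, against 20.9 and 100.3 CPM in control libraries 1 and 2. The fitted log2 fold change was -1.96 with a confidence interval of -6.94 to 3.02 (adjusted p = 0.30), while without control library 2 it was -0.43 (adjusted p = 1.55e-06) and without control library 1 it was -2.71. The near-identical copy EIF3CL had 14 and 12 counts in the PRMT9 hairpin libraries and 14 and 2185 counts in the controls. Summed over both copies the counts were 524 and 499 after PRMT9 knockdown and 646 and 5029 in controls, so the sum was high in control library 2 as well. Of the 50-base windows of EIF3C, 45.5% also occur in other genes.

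The eIF4 genes also differed by component: 5 were lower, 2 higher and 1 was not called, with a median of -0.09. EIF4E encodes the cap-binding protein (chromosome 4, 98871684 to 98930637, minus strand). It had 52.6 and 53.4 CPM in PRMT9 hairpin libraries, against 101 and 108 CPM in the controls. About 0.509 of the control level remained (log2 fold change -0.98, SE 0.04, adjusted p = 8.72e-13). EIF4G1, the scaffold that joins EIF4E to the helicase and to eIF3, had 513 and 515 CPM after PRMT9 knockdown and 705 and 727 CPM in controls (-0.48, SE 0.02, adjusted p = 1.89e-12). Its relatives EIF4G3 and EIF4G2, the second of which lacks the EIF4E-binding part, fell by 0.12 and 0.06, but with upper-quartile scaling neither passed and EIF4G2 turned to 0.03. Summed over the 3 scaffolds the level was 229.7 and 231 RPKM after PRMT9 knockdown and 257 and 270.0 RPKM in controls.

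Among the helicase genes, EIF4A1 had 7.73 and 8.31 CPM in the PRMT9 hairpin libraries, against 10.3 and 10.7 CPM in the controls (-0.39, SE 0.09, adjusted p = 0.00157). These levels are uncertain, since 48.6% of its exon bases lie in same-strand exons of other genes in GENCODE 29. Its close relative EIF4A2 had 399 and 404 CPM after PRMT9 knockdown and 387 and 397 CPM in controls, a log2 fold change of 0.04 (95% confidence interval -0.01 to 0.08) that did not pass (adjusted p = 0.144). EIF4B, which stimulates the helicase and is shown after its values were seen, had 1561 and 1556 CPM after PRMT9 knockdown and 1194 and 1231 CPM in controls. Its groups were well apart (0.36, SE 0.02, adjusted p = 1.87e-11). EIF4H, a smaller relative of EIF4B, rose by 0.06 (adjusted p = 0.0279), a call lost in 10 of 17 alternative settings.

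Both genes of the 4E-binding proteins, which compete with EIF4G1 for EIF4E until mTORC1 phosphorylates them, were lower. EIF4EBP1 had 77.1 and 70.9 CPM in the PRMT9 hairpin libraries, against 115 and 114 CPM in the controls (-0.63, SE 0.04, adjusted p = 1.46e-10). EIF4EBP2 had 273 and 275 CPM after PRMT9 knockdown and 360.4 and 360.3 CPM in controls (-0.40, SE 0.02, adjusted p = 3.95e-11). The groups were apart in both. EIF4E and both of its binding proteins were thus lower. Summed over the binding proteins the level was 109 and 104 RPKM after PRMT9 knockdown and 155 and 157 RPKM in controls.

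Of the 5 scanning and joining factors 3 were lower and 1 higher, with a median of -0.32. EIF1AX, which keeps the small subunit open during scanning, had 123 and 128 CPM in PRMT9 hairpin libraries, against 197 and 198 CPM in controls (-0.66, SE 0.03, adjusted p = 1.65e-12). EIF5, which triggers GTP hydrolysis by eIF2 at the start codon, had 202 and 207 CPM after PRMT9 knockdown and 283 and 282 CPM in controls (-0.47, SE 0.02, adjusted p = 1.66e-11). EIF5B, the GTPase of subunit joining, had 281 and 276 CPM after PRMT9 knockdown and 349 and 348 CPM in controls (-0.32, SE 0.02, adjusted p = 7.55e-10). In these 3 genes the libraries of each group were nearly equal and the groups did not overlap. EIF1, which guards start codon choice, rose by 0.08 (adjusted p = 0.00498), a call lost in 6 of 17 alternative settings, DESeq2 among them. EIF6, which keeps free large subunits from joining, had 29.8 CPM in each PRMT9 hairpin library and 31.6 and 29.5 CPM in controls, with overlap (-0.04, adjusted p = 0.572).

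EIF5A, the hypusine-bearing factor that helps ribosomes through difficult peptide bonds and through termination, had 363 and 366 CPM in the PRMT9 hairpin libraries, against 564 and 543 CPM in the controls (-0.60, SE 0.02, adjusted p = 2.83e-13). The release factor genes were lower as well. GSPT1 encodes the GTPase eRF3a (chromosome 16, 11868128 to 11916082, minus strand) and had 165 CPM in each PRMT9 hairpin library, against 290.4 and 298 CPM in controls (-0.83, SE 0.02, adjusted p = 1.74e-14). ETF1 encodes eRF1, which reads the stop codon, and had 121 and 120.0 CPM after PRMT9 knockdown and 194 and 197 CPM in controls (-0.70, SE 0.03, adjusted p = 4.77e-13). The groups of all 3 genes were far apart relative to the spread within them. The summed level of the release factors after PRMT9 knockdown was 0.590 of that in controls, the lowest ratio among the 10 role groups.

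The elongation factors went the other way, with 3 of 4 tested genes higher and a median of 0.27. EEF1A1, which carries charged tRNAs to the ribosome (chromosome 6, 73515750 to 73523797, minus strand), had 28330.2 and 28406 CPM in the PRMT9 hairpin libraries, against 21741 and 22433 CPM in the controls (0.36, SE 0.02, adjusted p = 1.76e-12). EEF2, the translocase (chromosome 19, 3976056 to 3985469, minus strand), had 8407 and 8308 CPM after PRMT9 knockdown and 6304 and 6501 CPM in controls (0.38, SE 0.02, adjusted p = 2.18e-12). Both were higher by about the same factor, 1.28-fold and 1.31-fold, with no overlap. EEF1B2, a subunit of the exchange factor that recharges eEF1A, had 915 and 923 CPM after PRMT9 knockdown and 817 and 806 CPM in controls (0.18, SE 0.02, adjusted p = 1.33e-07). EEF1D, another exchange subunit, moved in the opposite direction, with 267 and 258 CPM after PRMT9 knockdown and 284 and 282 CPM in controls (-0.11, SE 0.02, adjusted p = 5.59e-04), a call lost with upper-quartile scaling (-0.02). EEF1G, the remaining subunit, had 0 counts in every library and was not tested. In GENCODE 29, 99.9% of its exon bases lie in same-strand exons of an overlapping gene, so no level of EEF1G can be read from these counts.

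PABPC1, the main cytoplasmic poly(A)-binding protein and a published substrate of PRMT9, had 4032 and 4058 CPM in the PRMT9 hairpin libraries, against 4474 and 4495 CPM in the controls. Its groups were apart although the change was small (-0.15, SE 0.01, adjusted p = 1.29e-07). PABPC4, an inducible relative, had 359 CPM in each PRMT9 hairpin library and 320.2 and 323 CPM in controls (0.16, SE 0.02, adjusted p = 3.17e-06). The pair therefore moved in opposite directions by similar log2 amounts.

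Set side by side, the medians of log2 fold change were -0.36 for eIF2, -0.15 for eIF2B, -0.02 for eIF3, -0.09 for eIF4 and 0.27 for the elongation factors. The groups are small and their ranges overlap: eIF3 reached from -1.10 among called genes to 0.35, and eIF4 from -0.98 to 0.36, against -0.11 to 0.38 for the elongation factors. The medians of the smaller role groups were -0.76 for release, -0.51 for the 4E-binding proteins and -0.32 for scanning and joining. By summed RPKM, which abundant members dominate, the level after PRMT9 knockdown over that in controls was 0.943 for eIF2, 0.832 for eIF2B, 0.942 for eIF3, 1.04 for eIF4 and 1.27 for elongation. The eIF4 sum is above 1 although 5 of its 8 genes were lower, because EIF4B alone held 253 ± 0.179 RPKM after PRMT9 knockdown and 197 ± 7.70 RPKM in controls. All translation factor genes together took 5.53% and 5.52% of the counts in the PRMT9 hairpin libraries and 4.75% and 4.83% in controls. Elongation factors made up 3.81% and 3.80% after PRMT9 knockdown and 2.91% and 2.98% in controls.

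**Figure D2:**
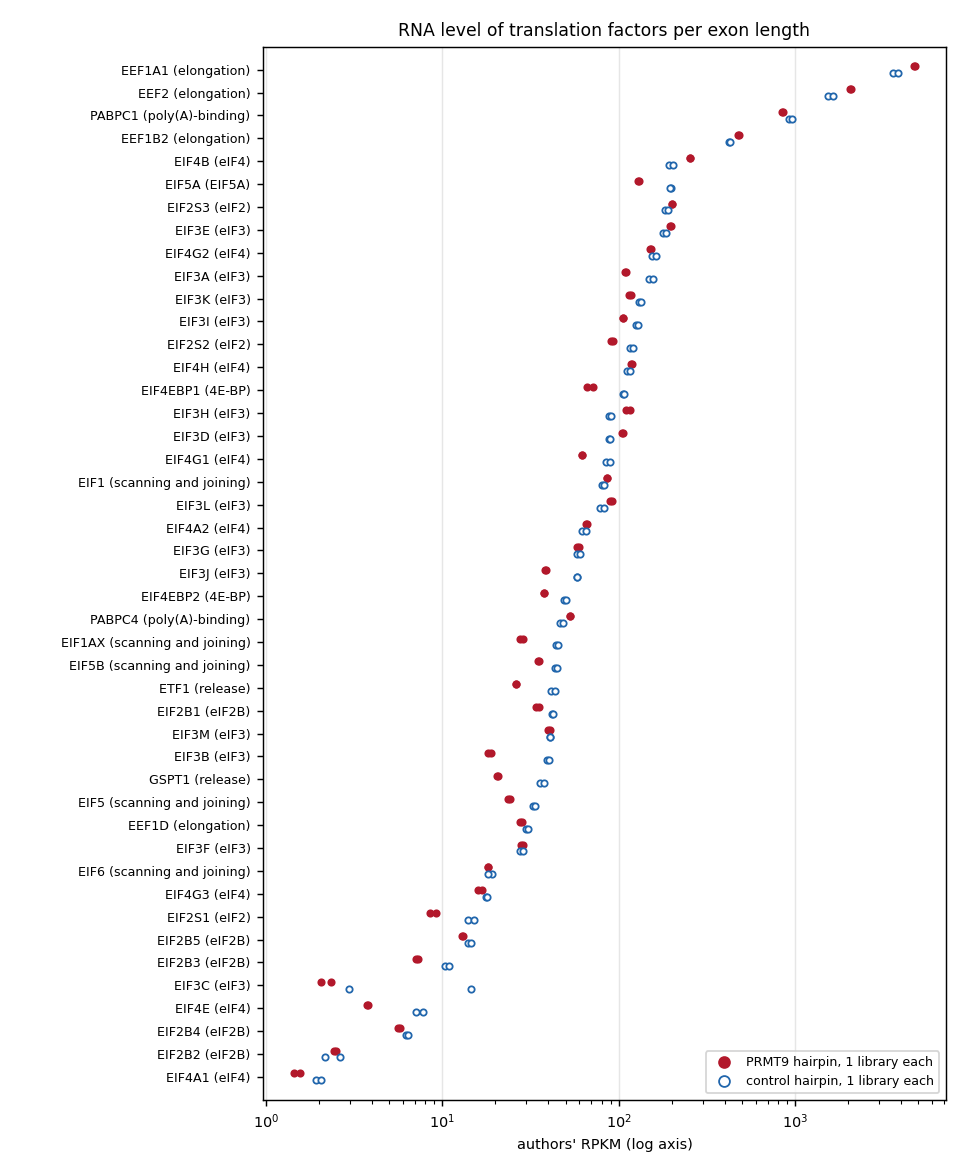
The authors' RPKM (horizontal log axis) of each translation factor gene with counts, in order of the level in controls, 1 point per library, with PRMT9 hairpin libraries filled and control libraries open. EEF1A1 (4761 RPKM after PRMT9 knockdown, 3714 RPKM in controls) stands at the top and EIF4A1 (1.51 and 1.98 RPKM) at the bottom. The place of EIF4A1 is uncertain, since 48.6% of its exon bases lie in same-strand exons of other genes.

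Per exon length, EEF1A1 was the most abundant at 4761 ± 16.5 RPKM after PRMT9 knockdown and 3714 ± 146 RPKM in controls (SD, n = 2 libraries each). EEF2 followed at 2072 ± 14.1 and 1590.4 ± 62.0 RPKM, then PABPC1 at 849.7 ± 5.30 and 944 ± 19.5 RPKM, and EEF1B2 at 479 ± 3.75 and 424 ± 3.59 RPKM, gaps far beyond the spread between libraries. In controls EIF4B and EIF5A came next at 197 ± 7.70 and 197 ± 1.71 RPKM and did not differ beyond their spread. After PRMT9 knockdown they were at 253 ± 0.179 and 129 ± 0.947 RPKM. EIF4E, the cap-binding protein gene, was among the least abundant at 3.76 ± 0.0444 RPKM after PRMT9 knockdown and 7.42 ± 0.482 RPKM in controls. The authors' length for EIF4E is 14067 bases, which lowers its RPKM, as lengths pool the exons of all isoforms.

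The pyrimidine start was not used to choose the genes, and it divided those of them with an entry in the RefSeq table. Of the 46, 36 have a start in the RefSeq table, and 10 of these have at least 1 start with a C and 4 or more further pyrimidines, as do 739 of the 9695 tested genes with a start (7.62%). Counted by single starts, the pattern is in 4.07% of the 35116 starts of the table. The search used the transcribed strand, from the annotated first base only. An absent entry does not mean that a gene lacks a start. The 10 genes of the 46 without an entry in the RefSeq table are left out of this division. Of them EIF3H, EIF3L, PABPC4 and EIF3E were higher, EIF3A, EIF2S2, EIF4EBP1, PABPC1 and EEF1D were lower, and EIF3G was not called. Among the 10 genes with such a start, 6 were higher (EEF1A1, EEF2, EEF1B2, EIF4B, EIF3D and EIF2S3) and 1 was lower (EIF3K). Another 3 were not called (EIF3F, EIF3M and EIF4A2), and the median was 0.14. Among the 25 tested genes without such a start, 2 were higher (EIF1 and EIF4H), 20 were lower and 3 were not called (EIF2B2, EIF3C and EIF6), with a median of -0.40. The same division was shallower over the rest of the transcriptome: excluding translation factors and ribosomal proteins, 44.7% of 682 tested genes with such a start were higher and 33.6% lower (median 0.07), against 33.9% higher and 41.3% lower of 8915 without (median -0.05). Ribosomal protein genes had a median of 0.28 whether the table gave them such a start (47 genes) or not (16 genes). A matching start is a description of the annotation, and the starts used in these cells were not measured.

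**Figure D3:**
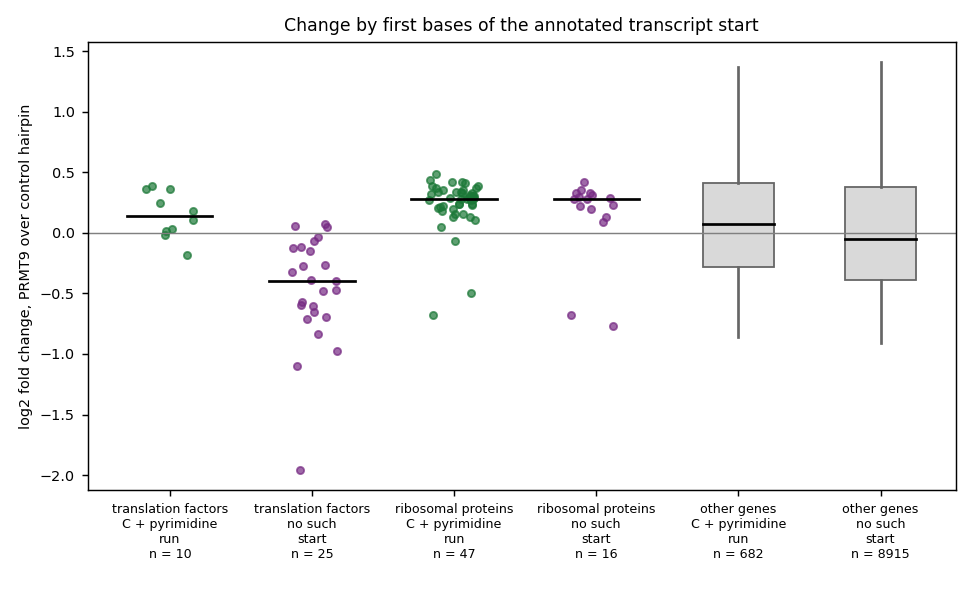
Log2 fold change of PRMT9 over control hairpin (vertical axis) for genes with and without an annotated start of C plus 4 or more pyrimidines; points are genes, horizontal bars medians, and for all other genes boxes span the middle quartiles and whiskers the 5th to 95th percentiles. Translation factors with such a start centre on 0.14 and those without on -0.40 (the lowest point is EIF3C, which was not called).

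Translation factors published as TOP messenger RNAs were described in the same way. Of its 10 members 9 were tested: EEF1A1, EEF1B2, EEF2, EIF3E, EIF3H and EIF4B were higher, EEF1D and PABPC1 lower, EIF3F was not called, and the median was 0.18. That is 66.7% of the 9 higher and 22.2% lower. Of the other 36 genes 6 were higher (16.7%) and 24 lower (66.7%), with a median of -0.30. Of all genes tested 33.4% were higher and 34.5% lower, and the difference between the lists was not tested. The list was drawn up with earlier results of these data known.

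Near-identical copies and overlapping genes touch some of these values. In 11 genes over 20% of the 50-base windows also occur in other genes. Those may be copies or genes that overlap on either strand, and the windows do not tell these apart. Among the 11 is EIF3L (44.5%), with the same-strand overlap given above. Others are EEF1A1 (22.5%), EIF4B (27.6%), EEF1B2 (31.4%), EIF5A (20.6%) and EIF2S2 (22.6%). Of the 29 genes with under 10% shared windows 6 were higher (20.7%), 20 lower (69.0%) and 3 not called, with a median of -0.18. The shares over all genes tested were 33.4% higher and 34.5% lower. EEF2, EIF3B, EIF3D, EIF2B5 and EIF4G3 share none.

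Beyond the 46 genes, 45 other genes of cytosolic translation were listed, of which 43 were tested. Of these 11 were higher (25.6%, against 33.4% of all genes) and 27 lower (62.8%, against 34.5%), with a median of -0.25, and the difference from other genes was not tested. The widest changes concerned the phosphatase that removes the phosphate from eIF2 alpha. PPP1R15A, its stress-induced targeting subunit, had 49.3 and 52.2 CPM in PRMT9 hairpin libraries, against 16.8 and 17.0 CPM in controls (1.59, SE 0.06, adjusted p = 1.58e-13). PPP1R15B, the constitutive subunit, had 57.0 and 55.5 CPM after PRMT9 knockdown and 151 CPM in each control (-1.42, SE 0.03, adjusted p = 8.12e-16). The groups were far apart in both, and the subunits moved in opposite directions. In the list of eIF2 kinases and phosphatase subunits as a whole 2 of 8 were higher (25%) and 4 lower (50%), where 33.4% and 34.5% of all genes were.

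Of 16 tested other initiation genes 6 were higher (37.5%) and 10 lower (62.5%). PDCD4, an inhibitor of the eIF4A helicase, had 456 and 462 CPM in PRMT9 hairpin libraries, against 232 and 241 CPM in controls (0.96, SE 0.02, adjusted p = 1.80e-15). LARP1, which binds TOP messenger RNAs, had 292 and 294 CPM after PRMT9 knockdown and 457 and 474 CPM in controls (-0.67, SE 0.02, adjusted p = 1.19e-13). Each gene's groups were far apart. Other elongation genes, which include the enzymes of hypusine and diphthamide synthesis, were mostly lower (9 of 14, 64.3%, with 3 higher), and so were other release and rescue genes (4 of 5, 80%, with 0 higher), beside 34.5% lower of all genes.

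**Figure D4:**
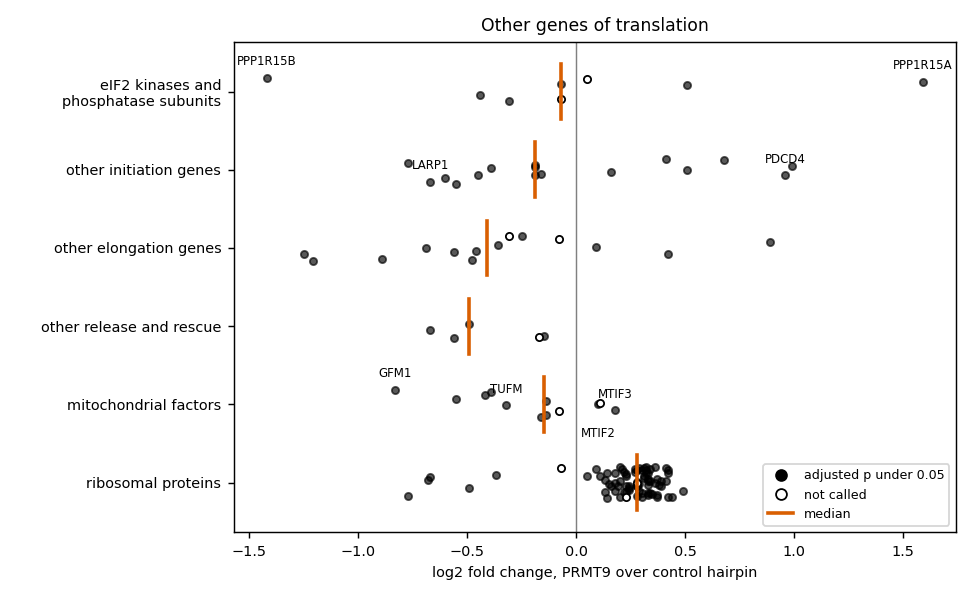
Log2 fold change of PRMT9 over control hairpin (horizontal axis) for other genes of translation by list; points are genes, filled where the adjusted p is under 0.05, and bars are medians. Ribosomal proteins cluster around 0.28, while the other lists have medians below 0 and PPP1R15A and PPP1R15B lie at the right and left ends.

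The mitochondrial translation factors had 2 of 12 genes higher (16.7%, against 33.4% of all genes) and 8 lower (66.7%, against 34.5%). Their median was -0.15, and the difference from other genes was not tested. DESeq2 called only 5 of them in all, where it called 26.4% of 30023 genes. The elongation factor genes GFM1 and TUFM fell by 0.83 and 0.32, and the initiation factor genes MTIF3 and MTIF2 rose by 0.18 and 0.10. Thus the mitochondrial elongation genes named here were lower where the cytosolic EEF1A1 and EEF2 were higher. The cytosolic ribosomal proteins lay on the side of EEF1A1 and EEF2, with a median of 0.28. Of 79 genes 71 were higher (89.9%, against 33.4% of all genes) and 5 lower (6.33%, against 34.5%). Against a fold of 1.2, 38 were called, where 44.9% of all genes were. RPL28 and RPL12 rose by 0.49 and 0.42, while RPS26 fell by 0.68. Of the lower genes, RPL17, RPL36A and RPS10 had only 100 to 470 counts per library, against 21763 to 36481 for RPL28.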

How the data were processed

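Poly(A) RNA of 4 MOLM13 libraries was sequenced on a NovaSeq X from Kapa mRNA HyperPrep libraries, per the labels' protocols. The authors deposited gene-level raw counts, with Ensembl identifiers on GRCh38, and RPKM values, which per the file headers and values are those counts per exon length and scaled library total. The submitters' processing notes list Trimmomatic 0.39, STAR 2.7.2a and SAMtools 1.10. How reads were counted, including strand and multiple mapping, is not given in the sources used here, so overlapping and duplicated genes are uncertain. The depth was 28592902 to 33845172 counts per library.

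Counts were filtered with filterByExpr (minimum count 10), which left 15193 genes with 99.9% of the counts, and tested with edgeR 4.0.16 (quasi-likelihood, TMM scaling, robust, group term) in R 4.3.3. Calls used a Benjamini-Hochberg adjusted p under 0.05 over all genes tested. CPM values are TMM-scaled, and a positive log2 fold change means higher with the PRMT9 hairpin. The procedure was also run on simulated counts in which few genes changed. In these data 68.0% of the genes tested were called, so that run does not test the scaling here. Levels across genes use RPKM. Gene models came from GENCODE 29, and 44 of the 46 genes have the same start and end there. Transcript starts came from RefSeq on GRCh38.p14.

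The members, lists, tests and alternatives were chosen with earlier results of these data known. Values per library are given for up to 3 called genes with the largest absolute change and the gene with the smallest in each role group, plus PABPC1 and EEF1A1, and in comparison lists for up to 2 called genes in each direction by adjusted p, where a gene the rule names may be left unreported. EIF4B, EIF3D, EIF3H and EIF3C are shown beyond this rule. Alternatives were other scalings and filters, glmTreat against a fold of 1.2, DESeq2 1.42.0, limma 3.58.1 (voom, and log2(RPKM + 1) or log2(RPKM + 0.1) with a minimum mean of 0.5 RPKM or none), an adjusted p under 0.01, a replicate block and each library left out.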

Additional observations from a re-analysis of the deposited data

How the results depend on the processing

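Of 38 called genes, 27 kept their direction and call in every alternative other than glmTreat against a fold of 1.2, which 20 passed. Calls were lost most often for EIF4H (10 of 17 alternatives), EIF4G2 (9), EIF2B4 (7) and EIF1 (6). Under glmTreat 4 translation factors were higher and 16 lower, with 0 of eIF2 higher, 1 of eIF2B lower, 1 of eIF3 higher and 3 lower, 1 of eIF4 higher and 2 lower, 0 of elongation lower, 5 mitochondrial factors and 38 ribosomal proteins called, and 3366 genes lower in all. This test asks for a larger change by construction. In log2(RPKM + 1) with no filter 7 translation factors were higher, with 0 of eIF2, 2 of eIF3 and 1 of eIF4 higher, 2 of eIF2B, 2 of eIF4 and 0 of elongation lower, and 6 mitochondrial factors called. Upper-quartile scaling shifted values upward, giving 16 genes higher and 21 lower (median -0.06), against 5933 higher and 4443 lower over all genes, with 7 of eIF3 higher and 2 of eIF2B, 3 of eIF4 and 0 of elongation lower. DESeq2 gave 2 of eIF2B lower, 1 of eIF4 higher and 5 mitochondrial factors called. The eIF4 count of higher genes was also 1 with no filter, at an adjusted p under 0.01 and in both RPKM fits with the filter. Apart from the constructions named, the cause was not tested.

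Leaving out 1 library gave 11 to 13 translation factors higher and 24 to 27 lower, 2 to 4 of eIF2B lower and 1 to 3 of eIF4 higher. The sign turned for genes near 0: EIF2B2 ranged from -0.08 (without control 1) to 0.19 with 1 library left out, EIF6 was 0.05 with upper-quartile scaling and ranged from -0.07 to 0.01 (without control 1), EIF3M 0.07 with upper-quartile scaling and 0.01 with a filter at 1 CPM, and EIF4G2 0.03 with upper-quartile scaling. EIF3G was 0.08 with upper-quartile scaling, 0.01 with library totals and 0.02 with the 1 CPM filter, and ranged from -0.03 to 0.02 with 1 library left out (0.02 without PRMT9 hairpin library 2, 0.01 without control 2). A block for the replicate number gave 12 higher and 26 lower, and 5048 and 5259 over all genes. Same-numbered libraries did not deviate together (correlation -0.0307, 2 pairs), so the number is not treated as a pairing.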
